A study of Mus musculus with 18 samples.

Results

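The 40 genes described here drive or mark the cell division cycle. They were taken as a fixed list of symbols, and all 40 were found in both expression tables of the study, among 16533 gene rows for mouse liver and 15579 for AML12 cells. By role they fall into 8 G1 cyclins and their kinases, 3 inhibitors of cyclin-dependent kinases (CDK inhibitors), 13 genes of S phase and DNA replication and 16 genes of G2 and mitosis. RNA was sequenced from the livers of male db/db mice (B6.Cg-dock7m Leprdb/++/J), which carry a mutated leptin receptor and become obese and diabetic. Their age is not given in the labels. Over 9 weeks each mouse had 3 injections into a vein, 3 weeks apart. In 3 mice they held serum albumin of the mouse made as a recombinant protein (rMSA), at a dose of 1.5 mg for each g the animal weighed, and in the other 3 mice the same volume of saline. No liver of a lean mouse was analysed here. The other 12 libraries came from AML12, an established mouse hepatocyte line labelled as wild type, starved overnight without serum. They were then kept for 24 h with vehicle, with insulin at 10 nM, with rMSA at 600 μM or with both agents, 3 libraries for each. Each comparison asked whether rMSA, or insulin, moved these genes. The labels do not say whether the AML12 libraries came from separate cultures, so their p-values measure the spread between libraries, which may be technical.

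Cells enter the cycle through G1, when D-type cyclins bind CDK4 or CDK6 and then E-type cyclins bind CDK2. These kinases phosphorylate the RB family and release E2F factors, which switch on the genes of DNA replication, while inhibitors such as p21 (Cdkn1a) hold the kinases back. Genes of G2 and mitosis are switched on later, through FOXM1 and B-MYB at promoters with CHR and CCAAT elements. Adult hepatocytes are mostly out of the cycle and re-enter it after tissue loss, a response in which cyclin D1 is a known early step.

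The promoters of the late genes and of the replication genes differ in their letters, and 5 members that changed in the liver are shown for this reason. RefSeq promoter windows of GRCm38.p6, 300 bases around each start site, were found for 33 of the 40 members. There was no entry for Aurkb, Ccna2, Ccnd1, Ccnd2, Ccne2, Foxm1 and Mcm4. Windows were searched on both strands for the E2F core (TTNNCGC with C or G at each N), the CHR element (TTTGAA) and the CCAAT box. The stretches below run 5′ to 3′ on the gene's strand and end at the base before the start site, with every match in capitals; a box read on the other strand appears as ATTGG, and E2F matches can overlap on opposite strands.
Cdc20, chr4:118437344-118437463, minus strand: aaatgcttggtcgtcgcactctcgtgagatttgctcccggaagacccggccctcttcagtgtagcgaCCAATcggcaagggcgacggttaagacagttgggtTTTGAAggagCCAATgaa
Ccnb2, chr9:70421555-70421674, minus strand: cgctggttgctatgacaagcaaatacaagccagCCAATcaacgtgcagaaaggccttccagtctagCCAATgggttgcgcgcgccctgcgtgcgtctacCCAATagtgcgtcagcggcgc
Cenpa, chr5:30666766-30666885, plus strand: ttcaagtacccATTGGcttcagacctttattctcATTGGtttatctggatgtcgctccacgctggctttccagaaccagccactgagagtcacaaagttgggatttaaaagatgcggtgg
Mcm6, chr1:128359706-128359855, minus strand: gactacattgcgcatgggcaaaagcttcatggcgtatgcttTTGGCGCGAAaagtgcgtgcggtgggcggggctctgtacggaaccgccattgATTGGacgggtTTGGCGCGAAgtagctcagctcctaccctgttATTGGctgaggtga
Mcm5, chr8:75109339-75109508, plus strand: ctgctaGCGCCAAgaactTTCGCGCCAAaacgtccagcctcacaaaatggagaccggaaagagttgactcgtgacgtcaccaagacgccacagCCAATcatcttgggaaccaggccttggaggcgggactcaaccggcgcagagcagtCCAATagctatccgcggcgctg

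In Cdc20 the CHR letters begin 18 bases before the start site, between CCAAT boxes that begin 53 and 8 bases before it. Ccnb2 carries CCAAT boxes that begin 87, 54 and 21 bases before its start. In Mcm6 a TTGGCGCGAA run, which reads as an E2F core on either strand, begins 109 and again 46 bases before the start. Over whole windows, the CHR element was present in 9 of the 13 G2 and mitosis genes with an entry and in 1 of the 12 S phase genes, against 17.9% of all 32851 promoters in the table. A CCAAT box was present in 12 of the 13 and 7 of the 12, against 37.4% of all promoters. The E2F core was present in 3 of the 13 and 7 of the 12, against 9.57% of all promoters. Among the G1 genes 1 of 5 held an E2F core and none a CHR element, and 1 of 3 CDK inhibitors held an E2F core. These matches describe letters only.

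Values are TPM, a share of all transcripts in the library scaled for gene length, so levels can be compared between genes. Sequencing depth is not given by TPM, and no counting error can be set beside a value. A member was said to rise or fall when limma, fitted to log2(TPM + 1) over every gene whose mean reached 1 TPM, gave a Benjamini-Hochberg adjusted p under 0.05. Fold changes are on that log2 scale, which understates changes of genes near 1 TPM. The liver libraries held the hepatocyte product Alb at 32790 to 52715 TPM. In AML12 it was at 23.6 to 93.9 TPM. Cps1, the urea cycle enzyme that marks liver hepatocytes, was at 0 in 11 of 12 libraries and at 0.02 TPM in the other. The hepatocyte factor Hnf4a was kept better, at 51.0 to 132 TPM against 211 to 549 TPM in the livers. Ttr was at 37.3 to 268 TPM against 6776 to 11973 TPM. The bile duct keratin Krt19 was at 1012 to 1804 TPM in AML12. These cells, labelled as hepatocytes, thus carried little Alb and Cps1 but kept part of the hepatocyte list. AML12 insulin libraries 1 and 2 stood apart from the other 10: ribosomal protein genes took 31.3% and 33.5% of their TPM, against 20.6% to 26.1% elsewhere, and insulin library 2 was the lowest of its group in 33 of the 40 members. AML12 results are therefore given with and without these 2 libraries. Insulin library 3 shared other traits with them. The insulin libraries had 14300, 14327 and 14470 genes above 0, against 14072 to 14288 in the other AML12 libraries. Their TPM summed to 999999 or more, against 999949 to 999977. Whether the insulin group was processed in another way was not tested.

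In the liver, rMSA went with higher cyclin D1, lower p21 and higher transcripts of 5 of 6 helicase subunits and 8 of 16 genes of G2 and mitosis. Of the 40 members 33 were tested, of which 17 rose and 3 fell, that is 51.5% and 9.09%, where 21.8% of the 11398 genes tested rose and 8.38% fell. Of the 17, 6 reached the test only through the rMSA group, their saline mean being under 1 TPM (Mcm4, Mcm5, Ccna2, Ccnb1, Aurkb and Foxm1). Without genes of that kind, a setting chosen after seeing the data, 11 of 27 members rose and 3 fell (40.7% and 11.1%), against 20.9% and 8.21% of all genes with both means at 1 TPM or more. The other 20 were 13 that did not pass the test and 7 under 1 TPM on average, which were not tested. The 3 rMSA mice lay above all 3 saline mice for 22 of the 40 members and below them for 4, where this was so for 32.7% and 13.0% of tested genes. Counts of members of this kind, here and below, include untested ones. The median log2 fold change of the 40 was 0.53, against 0.06 over all genes of the table. In whole liver, more dividing cells and more RNA per cell cannot be told apart. Saline mouse 1 was the highest of its group for 30 of the 40 members. Without it 17 rose and 3 fell again, beside 2095 and 727 of all 11359 genes tested. Leaving out rMSA mouse 2 moved the count most, to 10 that rose and 3 that fell, beside 1669 and 638 of 11389 genes.

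**Figure D1:**
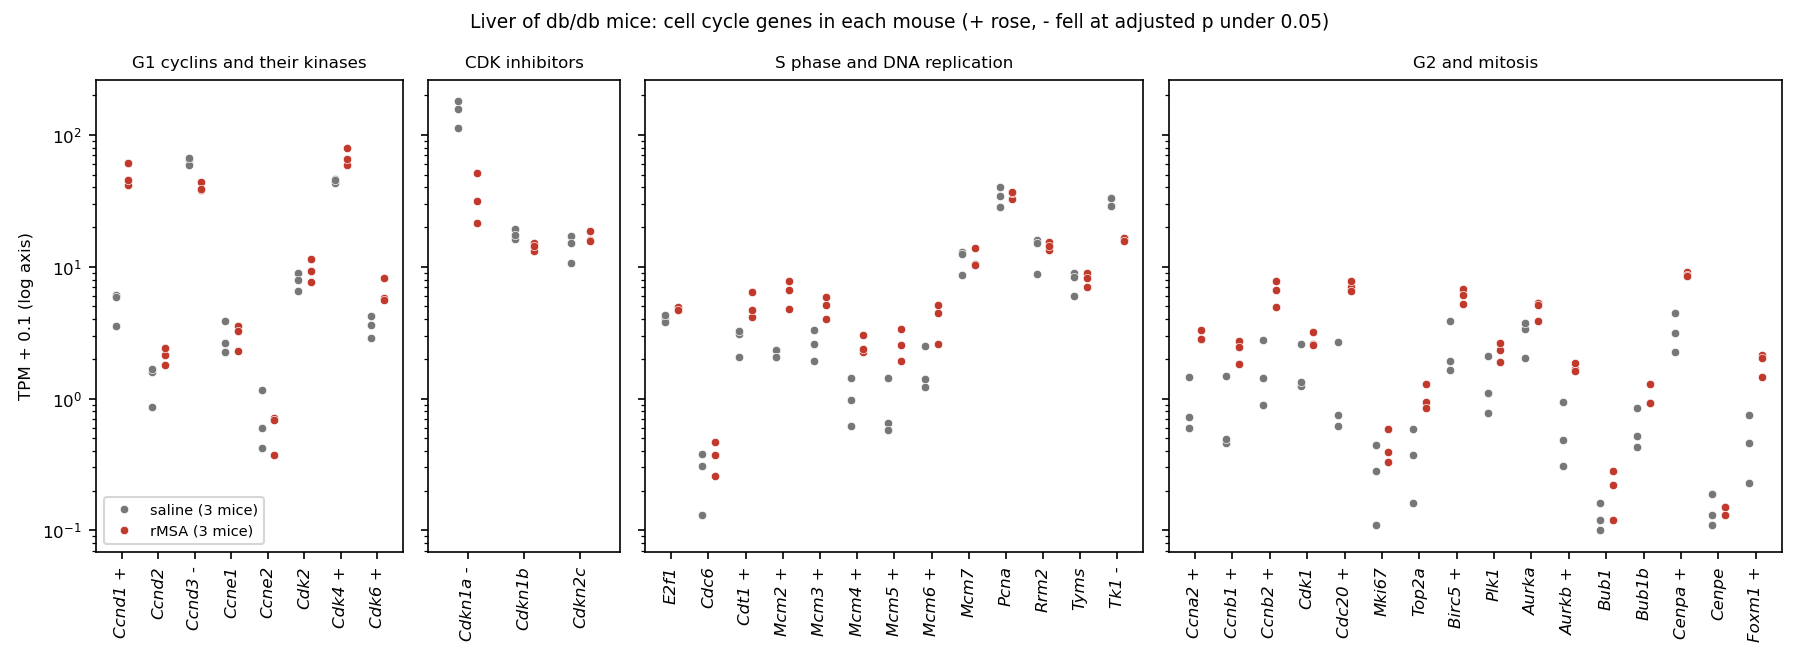
TPM of each of the 40 members in each of the 6 livers, on a log axis after adding 0.1 so that values of 0 can be drawn, with saline mice in grey and rMSA mice in red. Ccnd1 lies far higher and Cdkn1a far lower in the 3 rMSA mice. Of the 16 genes of G2 and mitosis 11 have every rMSA mouse above every saline mouse, the untested Bub1b and Top2a among them. This was so for 32.7% of tested genes.

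Cyclin D1 (Ccnd1, chromosome 7, 144929931 to 144939831), the partner of CDK4 and CDK6 in early G1, changed most. It was at 5.96, 5.84 and 3.47 TPM in saline livers and at 41.6, 45.7 and 60.8 TPM in rMSA livers. Every rMSA mouse was above every saline mouse by several fold, the means differing 9.70-fold (log2 fold change 3.06 ± 0.21 SE, adjusted p = 4.3e-05). Ccnd1 passed the test in every alternative run.
Its kinases also rose, by less. Cdk4 was at 42.8, 46.7 and 45.5 TPM in saline livers and 59.6, 79.7 and 65.7 TPM in rMSA livers (log2 fold change 0.58, adjusted p = 0.0090), a call lost when libraries were centred on their medians. Cdk6 went from 3.50, 4.16 and 2.76 TPM to 5.69, 5.51 and 8.18 TPM (log2 fold change 0.73, adjusted p = 0.022), and lost its call without rMSA mouse 3, saline mouse 1 or saline mouse 3. The groups did not overlap for either kinase.
Cyclin D3 (Ccnd3), another D-type cyclin, went the other way. It was at 64.0, 58.7 and 67.2 TPM in saline livers and 44.0, 37.9 and 38.7 TPM in rMSA livers (log2 fold change -0.64, adjusted p = 0.0028). In saline livers Ccnd3 was thus the most abundant of the D-type cyclins, whereas under rMSA its values of 37.9 to 44.0 TPM overlapped the 41.6 to 60.8 TPM of Ccnd1.
The remaining G1 genes did not pass the test. Ccnd2 was at 0.76 to 1.57 TPM with saline and 1.69 to 2.32 TPM with rMSA, apart but with an adjusted p of 0.14. For Cdk2, the kinase of the G1 to S transition, and for its partner cyclin E1 (Ccne1) the groups overlapped, at 6.49 to 8.92 against 7.53 to 11.4 TPM and at 2.17 to 3.76 against 2.21 to 3.47 TPM. Cyclin E2 (Ccne2) was under 1 TPM on average. Over the class of 8, 3 rose and 1 fell of the 7 tested, where 21.8% of all genes tested rose and 8.38% fell.

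Cdkn1a (chromosome 17, 29090979 to 29100722) encodes p21, a p53 target that binds and inhibits cyclin and CDK complexes. It was at 156, 112 and 180 TPM in saline livers and at 21.4, 31.5 and 51.1 TPM in rMSA livers. All rMSA mice were below all saline mice, and the rMSA mean was 0.232 of the saline mean (log2 fold change -2.14 ± 0.29 SE, adjusted p = 0.0012). Cdkn1a also passed in every alternative run. The related inhibitor p27 (Cdkn1b) was at 16.3 to 19.3 TPM with saline and 13.0 to 15.0 TPM with rMSA, also apart, with an adjusted p of 0.099. Cdkn2c (p18), an inhibitor of CDK4 and CDK6, overlapped at 10.5 to 17.1 and 15.7 to 18.6 TPM.

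Most S phase genes that rose encode the MCM helicase. MCM2 to MCM7 form the ring that is loaded at origins and unwinds DNA, and transcripts of 5 of its 6 subunits rose. Mcm2 went from 2.25, 1.98 and 1.98 TPM to 4.70, 7.69 and 6.54 TPM (log2 fold change 1.23 ± 0.18 SE, adjusted p = 0.0016) and passed in every alternative in which it was tested. Mcm5 went from 1.34, 0.55 and 0.48 TPM to 1.81, 3.25 and 2.47 TPM (log2 fold change 0.98, adjusted p = 0.014). Mcm6 went from 2.39, 1.30 and 1.13 TPM to 2.49, 5.02 and 4.38 TPM (log2 fold change 0.92, adjusted p = 0.028).
In both of these, saline mouse 1 lay close to rMSA mouse 1 and the groups only just parted. Mcm4 (0.52 to 1.32 against 2.17 to 2.93 TPM, log2 fold change 0.87) and Mcm3 (1.81 to 3.2 against 3.92 to 5.78 TPM, log2 fold change 0.76) rose too. Mcm3, Mcm5 and Mcm6 each lost their call when rMSA mouse 2 or saline mouse 2 was left out, Mcm3 and Mcm6 also without rMSA mouse 3 and Mcm6 without saline mouse 3. The sixth subunit, Mcm7, was the most abundant and overlapped, at 8.54 to 12.8 TPM with saline and 10.2 to 13.8 TPM with rMSA.
Cdt1, which loads the helicase at origins, went from 1.97 to 3.18 TPM to 4.06 to 6.29 TPM (log2 fold change 0.69, adjusted p = 0.033). It was lost in 8 of the 14 alternatives in which it was tested, more than any other liver call, among them those without rMSA mouse 2 or 3 or saline mouse 1 or 2. Cdc6, its partner in loading, was under 1 TPM on average.
The replication clamp and the nucleotide enzymes did not follow the helicase. Pcna, the sliding clamp, was at 40.1, 34.3 and 28.5 TPM with saline and 32.7, 36.5 and 37.0 TPM with rMSA (log2 fold change 0.06 ± 0.14 SE). Rrm2, a subunit of ribonucleotide reductase, and Tyms, thymidylate synthase, overlapped as well, with log2 fold changes of 0.15 and 0.06. E2f1 was at 3.72 to 4.18 and 4.63 to 4.81 TPM, apart by a narrow margin, with an adjusted p of 0.29.
Thymidine kinase 1 (Tk1), an enzyme of S phase, fell. It was at 28.9, 28.9 and 33.5 TPM in saline livers and 16.4, 16.6 and 15.6 TPM in rMSA livers (log2 fold change -0.87, adjusted p = 0.00081), and this held in every alternative run. The Tk1 locus shares 585 bases with Afmid, a tryptophan pathway gene of the liver, and whether reads were assigned by strand is not given in the sources used here. Afmid was at 192, 189 and 207 TPM with saline and 74.3, 83.3 and 80.5 TPM with rMSA (log2 fold change -1.29). Its part in the Tk1 value was not tested. In all, 15 of the 40 members overlap another annotated gene, and reads from a shared stretch cannot be told apart without strand. Among them are Ccna2 (863 bases shared with Exosc9), Ccnd1 (818 with LTO1), Ccnd3 (359 with Bysl) and Cdc20 (53 with Elovl1). LTO1 had mean levels of 7.81 TPM with saline and 11.8 TPM with rMSA, and its part in the Ccnd1 value was not tested. Over the S phase class of 13, 6 rose and 1 fell of the 12 tested, where 21.8% of all genes tested rose and 8.38% fell. The summed TPM of the class overlapped, at 102 to 124 with saline and 106 to 125 with rMSA, since Pcna, Tk1, Rrm2 and Mcm7 carried most of it.

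Of the 16 genes of G2 and mitosis 8 rose and 0 fell in the limma test, 3 did not pass and 5 were under 1 TPM and untested. The 8 were 72.7% of the 11 tested, beside 21.8% of all genes tested. All 11 that were tested had an unadjusted p under 0.05, as had 41.2% of all genes tested. With both group means at 1 TPM or more, 4 of 7 rose (57.1%, beside 20.9% of all genes of that kind). Their summed TPM was 27.2, 13.4 and 12.3 in saline livers and 49.0, 51.8 and 44.4 in rMSA livers. The lowest rMSA liver was therefore well above the highest saline liver, although the sum of 16 genes stayed under 52 TPM in each mouse.
Cdc20, which activates the anaphase-promoting complex, was at 2.58, 0.52 and 0.65 TPM with saline and 6.94, 7.66 and 6.41 TPM with rMSA (log2 fold change 1.94 ± 0.31 SE, adjusted p = 0.0023). Ccnb2, a mitotic cyclin, went from 2.70, 1.32 and 0.80 TPM to 6.56, 7.66 and 4.85 TPM (log2 fold change 1.54, adjusted p = 0.0039). Cenpa, the centromeric histone H3 variant, went from 4.37, 3.02 and 2.17 TPM to 8.95, 8.55 and 8.46 TPM (log2 fold change 1.24, adjusted p = 0.0024).
These 3, whose promoter stretches carry the CCAAT boxes shown above, had no overlap between groups. Birc5 (survivin), of the chromosomal passenger complex, went from 3.79, 1.84 and 1.54 TPM to 6.72, 6.04 and 5.14 TPM (log2 fold change 1.09, adjusted p = 0.011). Ccna2, the cyclin of S phase and G2, went from 1.36, 0.63 and 0.50 TPM to 2.75, 2.72 and 3.21 TPM (log2 fold change 1.12, adjusted p = 0.0040).
Saline mouse 1 was again the highest of its group in each of them. Foxm1, the transcription factor of late cell cycle genes, was at 0.65, 0.36 and 0.13 TPM with saline and 2.04, 1.93 and 1.35 TPM with rMSA (log2 fold change 1.02, adjusted p = 0.0057). Ccnb1, the main mitotic cyclin, and Aurkb, the kinase of the passenger complex, rose with log2 fold changes of 0.96 and 0.85, and Ccnb1 lost its call without rMSA mouse 1, rMSA mouse 2 or saline mouse 2. Ccna2, Ccnb1, Aurkb and Foxm1, like Mcm4 and Mcm5, had a saline mean under 1 TPM, and a gene of this kind had to differ to be tested at all.
The best-known proliferation markers stayed low. Cdk1, the kinase of mitosis, was at 2.49, 1.15 and 1.23 TPM with saline and 2.48, 3.10 and 2.47 TPM with rMSA, where saline mouse 1 lay within the rMSA range (log2 fold change 0.52, adjusted p = 0.10). Mki67 was at 0.34, 0.18 and 0.01 TPM with saline and 0.49, 0.23 and 0.29 TPM with rMSA, overlapping and too low to be tested. Top2a, the topoisomerase that separates replicated DNA, was at 0.49, 0.27 and 0.06 TPM with saline and 0.84, 0.74 and 1.19 TPM with rMSA, apart but under the mean needed for the test. Bub1b was also apart under 1 TPM, Plk1 and Aurka did not pass (adjusted p of 0.11 and 0.087), and Bub1 and Cenpe were at 0.18 TPM or less in every liver.

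**Figure D2:**
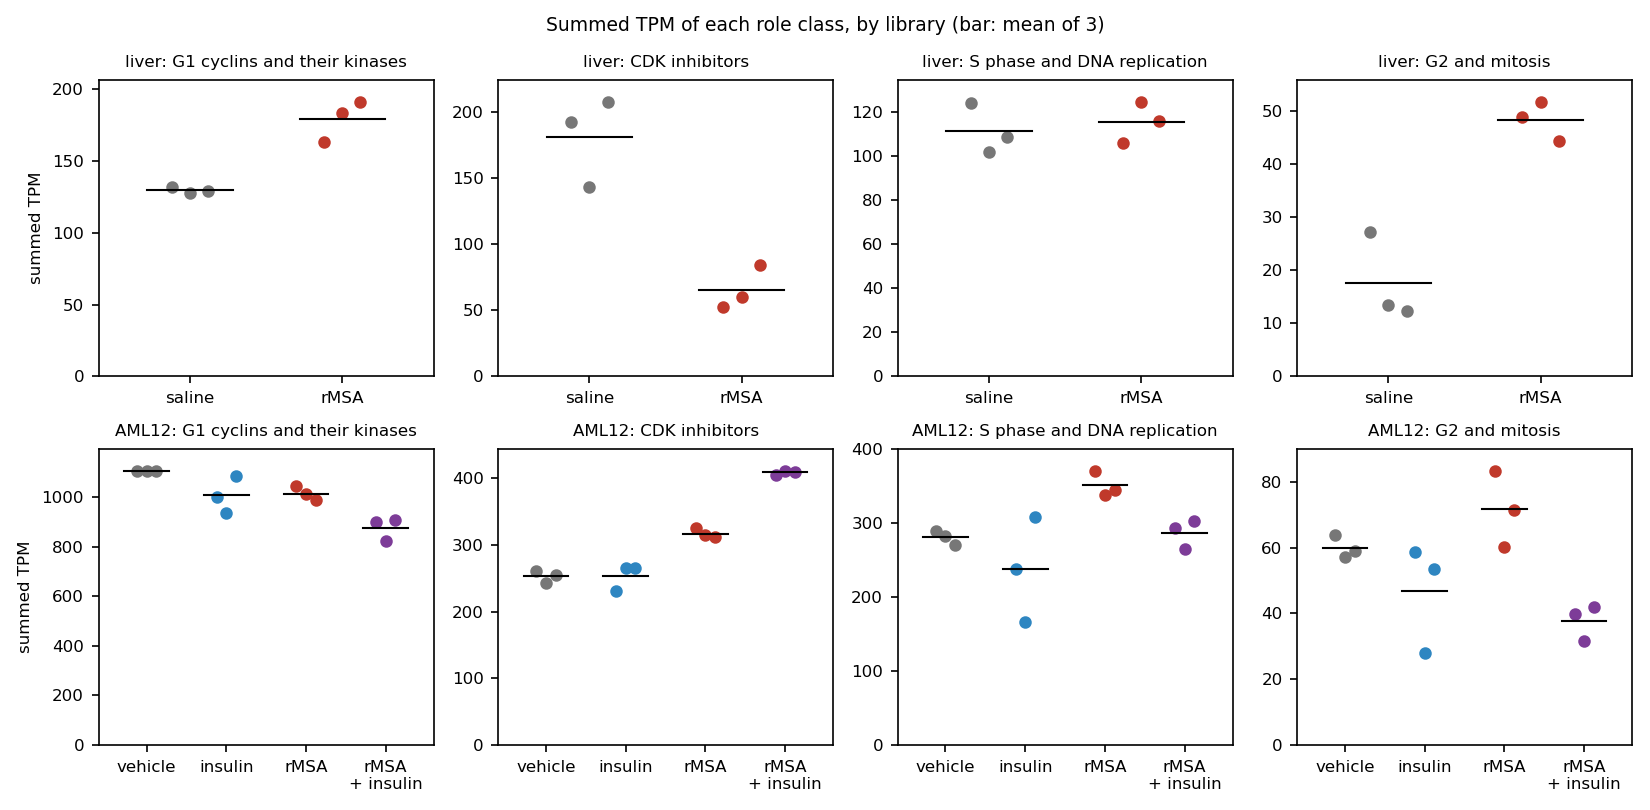
Summed TPM of each of the 4 role classes in each library, liver above and AML12 below, with points for libraries 1, 2 and 3 and a bar for their mean. In the liver the sum of G2 and mitosis genes is 12.3 to 27.2 TPM with saline and 44.4 to 51.8 TPM with rMSA, while S phase sums overlap, and in AML12 the insulin group is the most spread.

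Other genes of the cycle were counted in wider lists. In the list of G2, spindle and chromosome segregation genes 17 of the 28 tested rose and 0 fell in the limma test (60.7%, beside 21.8% of all genes). Among those with both group means at 1 TPM or more 11 of 20 rose (55%, beside 20.9% of all genes of that kind). Wee1, a kinase that holds CDK1 inactive, had mean levels of 4.28 TPM with saline and 12.5 TPM with rMSA (log2 fold change 1.36), Cdkn3, a CDK phosphatase, 0.920 and 6.16 TPM (1.86), and Pkmyt1, the other kinase that inhibits CDK1, 0.663 and 2.77 TPM (1.20). Cdkn3 and Pkmyt1, and E2f8 named next, reached the test only through the rMSA group. Of the 36 genes of replication origins and forks tested 8 rose and 0 fell (22.2%, close to the 21.8% of all genes), among them Dut (log2 fold change 0.76), Lig1 (0.90) and Dnmt1 (0.95). Of the 22 genes of G1 control and the RB and E2F families tested 4 rose and 4 fell (18.2% each). There E2f8, a repressor of the E2F family, had mean levels of 0.15 TPM with saline and 3.00 TPM with rMSA, Tfdp2, an E2F partner, 8.05 and 2.21 TPM, and Myc 5.51 and 9.37 TPM. The list of p53 targets, to which Cdkn1a belongs by function, also held Trp53, the gene of p53 itself. Of its 16 genes tested 5 rose and 4 fell (31.2% and 25%). Plk3 and Sesn2 fell with log2 fold changes of -1.34 and -1.10, and Trp53, counted among the 5, rose (0.71).
Some lists of markers of other cells were also higher with rMSA, the stellate list most clearly. Counts are over all listed markers, and 21.8% of all genes tested rose and 8.38% fell. The stellate cell and fibroblast list, with 7 of 8 markers higher, summed to 31.2 to 40.7 TPM with saline and 108 to 126 TPM with rMSA, led by Col3a1 and Col1a2. The bile duct list, with 3 of 6 higher, summed to 22.5 to 38.3 TPM and 77.0 to 167 TPM, mostly Spp1, with Cftr at or under 0.05 TPM. The neutrophil list, with 3 of 6 higher, summed to 10.4 to 15.4 and 24.0 to 26.1 TPM. The macrophage list had 1 of 10 higher and 2 lower (496 to 745 and 522 to 782 TPM), the endothelial list 1 of 8 higher (113 to 160 and 156 to 158 TPM), the lymphocyte list 1 of 10 higher and 1 lower (6.41 to 19.6 and 7.33 to 13.0 TPM) and the erythroid list 1 of 8 higher and 1 lower (2924 to 4070 and 2488 to 3407 TPM). Of 9 hepatocyte markers 2 were higher and 5 lower, Cps1 and Hnf4a among them, and their sum was 66906 to 87020 and 81964 to 86516 TPM. The part of these cell types in the rise of cell cycle genes was not tested.

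In AML12 the same genes stood at other levels. Cdk4 was the most abundant member, at 630 to 843 TPM in the 12 libraries against 42.8 to 79.7 TPM in the 6 livers, and Ccnd1 was at 48.4 to 298 TPM. The sum of G2 and mitosis genes was 57.1 to 63.9 TPM with vehicle, above that of every liver. Ccne1, Ccne2, Cdc6 and Cenpe were under 1 TPM on average and were not tested. The tables for liver and cells were normalized separately, so levels set across them are descriptive. Among marker lists, the summed neutrophil list was at 17.8 to 18.8 TPM with vehicle, 10.0 to 13.5 with insulin, 59.8 to 76.2 with rMSA and 38.6 to 43.0 with both, with 1 of its 4 listed markers called higher for rMSA against vehicle. The bile duct list was at 1680 to 2254 TPM and the hepatocyte list at 181 to 440 TPM over the 4 groups. The part of these lists in the results was not tested.

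Against vehicle, rMSA alone went with higher Tk1, Mcm5, Mcm3 and Cdkn1a and lower Cdk4. Of the 36 members tested 4 rose and 1 fell, that is 11.1% and 2.78%, where 5.90% of the 10826 genes tested rose and 1.89% fell. Groups did not overlap for 23 members with rMSA higher and 2 with rMSA lower, where this was so for 25.5% and 14.2% of tested genes, and the median log2 fold change of the 40 was 0.27 against 0.03 over all genes. Without insulin libraries 1 and 2, which enter this comparison only through the shared estimate of spread, 10 rose and 1 fell. Over all 10865 genes tested in that fit 1670 rose and 728 fell. Centring on library medians gave 6 that rose and 0 that fell, where 607 and 333 of all 10826 genes tested did.
Tk1 moved most. It was at 5.62, 4.55 and 4.89 TPM with vehicle and 11.1, 11.6 and 14.1 TPM with rMSA (log2 fold change 1.14 ± 0.16 SE, adjusted p = 0.0014), in every alternative, while Afmid, the gene that overlaps it, had a log2 fold change of -0.04 (adjusted p = 0.96). Mcm5 was at 2.5, 2.86 and 3.32 TPM with vehicle and 6.59, 4.83 and 6.08 TPM with rMSA (log2 fold change 0.81, adjusted p = 0.0087), a call lost without vehicle library 1. Mcm3 was at 8.87, 9.45 and 8.56 TPM with vehicle and 15.1, 13.0 and 15.2 TPM with rMSA (log2 fold change 0.63, adjusted p = 0.032).
In these 3 genes every rMSA library was above every vehicle library, but the Mcm3 call was lost without any 1 of the 9 libraries of the vehicle, rMSA and rMSA + insulin groups. Of the 13 S phase genes 11 were apart with rMSA higher, among them Pcna, at 110, 107 and 96.4 TPM with vehicle and 130, 123 and 118 TPM with rMSA (log2 fold change 0.24, adjusted p = 0.84), and Rrm2 (log2 fold change 1.01, adjusted p = 0.11). The insulin libraries, at 38.5 to 115 TPM for Pcna, enter the spread of this test.
Cdkn1a rose from 202, 187 and 203 TPM to 263, 257 and 264 TPM (log2 fold change 0.40, adjusted p = 0.011), a call lost without vehicle library 2 and under median centring. Cdk4 fell from 816, 843 and 842 TPM to 659, 660 and 668 TPM (log2 fold change -0.33, adjusted p = 0.0022). With the libraries centred on their medians Cdk4 was not called, while its groups as deposited did not overlap.
Ccnd1 was at 216, 196 and 189 TPM with vehicle and 298, 267 and 239 TPM with rMSA, apart, with a log2 fold change of 0.42 ± 0.38 SE and an adjusted p of 0.73. No gene of G2 and mitosis passed, with 0 of 15 tested in the limma fit, 2 at an unadjusted p under 0.05 (13.3%, beside 18.8% of all genes) and 6 of 16 apart with rMSA higher. Mki67 was at 2.27, 2.08 and 2.14 TPM with vehicle and 4.45, 3.16 and 3.45 TPM with rMSA (adjusted p = 0.15), and Top2a at 5.46, 4.53 and 4.63 and 8.45, 5.58 and 6.51 TPM (adjusted p = 0.47). Cdk1 overlapped, at 4.58 to 4.85 and 4.49 to 5.11 TPM.
Among the wider lists 4 of the 18 genes of the p53 list, which holds Trp53 as well as targets, rose (22.2%, beside 5.90% of all genes) and none fell. They were led by Plk3, Fas and Phlda3 with log2 fold changes of 0.86, 1.11 and 0.42. Of the 44 origin and fork genes tested 3 rose (6.82%, beside 5.90% of all genes), among them Orc5 and Gins1 (0.75 and 0.67). Of the 24 genes of G1 control tested 2 rose (8.33%) and 0 fell. These were Cdkn2d, another CDK inhibitor, and Mybl2, which encodes B-MYB (0.78 and 0.52). Of the 40 G2 and spindle genes tested 1 rose and 1 fell (2.5% each, beside 5.90% and 1.89% of all genes). Cks2, a CDK subunit, rose (0.90) and Stmn1, which destabilises microtubules, fell (-0.56).

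**Figure D3:**
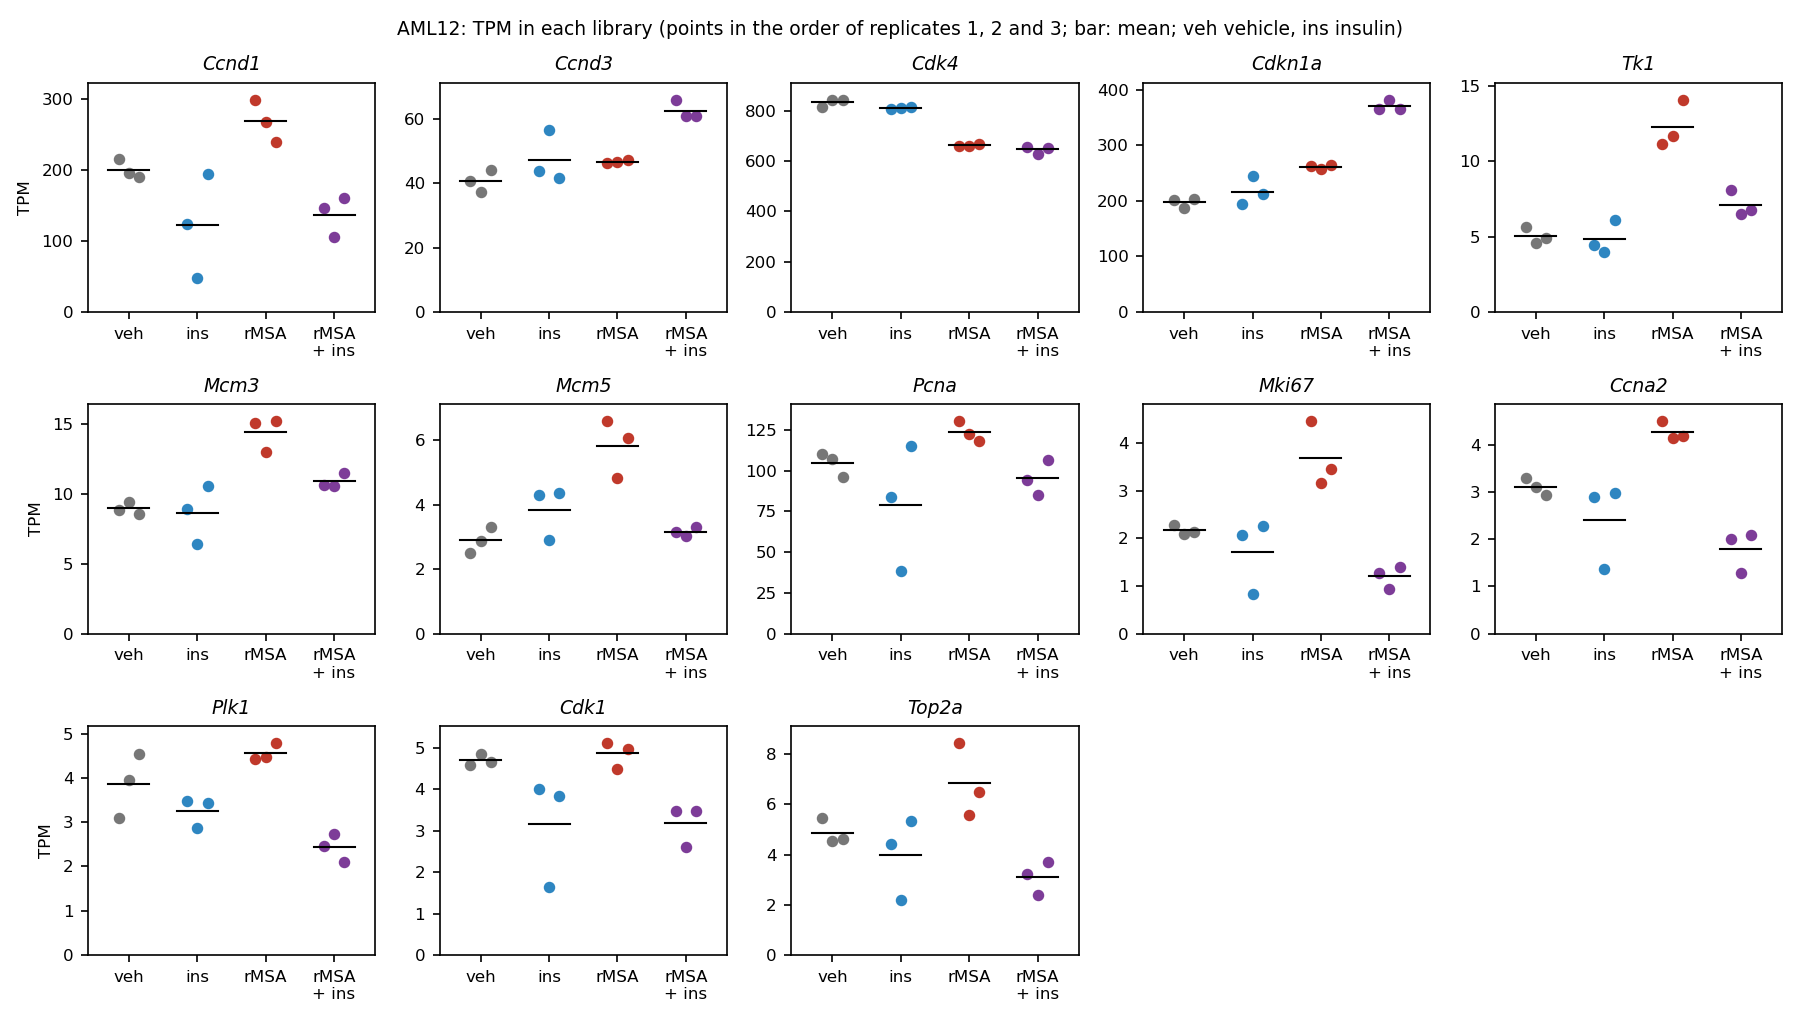
TPM of 13 members in each of the 12 AML12 libraries, with points for libraries 1, 2 and 3 of each group in that order and a bar for their mean. Tk1, Mcm3 and Mcm5 are highest with rMSA alone, Cdkn1a is highest with rMSA + insulin at 365 to 382 TPM, and the insulin group is the most spread for Ccnd1 and Pcna.

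With insulin present, rMSA was compared with insulin alone. Here Cdkn1a and Ccnd3 rose and Cdk4 fell, 5.56% and 2.78% of the 36 tested, where 14.5% of all tested genes rose and 2.73% fell. Groups did not overlap for 8 members with rMSA + insulin higher and 2 lower, where this was so for 20.7% and 4.81% of tested genes. Cdkn1a was at 194, 245 and 212 TPM with insulin and 365, 382 and 365 TPM with both (log2 fold change 0.78 ± 0.08 SE, adjusted p = 0.00013). The gap between the groups was wider than the spread within either, and the call was lost only under median centring among the 23 alternatives run. Cdk4 was at 806, 809 and 816 TPM with insulin and 655, 630 and 653 TPM with both (log2 fold change -0.33, adjusted p = 0.0015), beside -0.33 without insulin, and was not called under median centring or with only the 2 groups in the fit. Ccnd3 was at 43.8, 56.4 and 41.5 TPM with insulin and 65.8, 60.8 and 61.0 TPM with both (log2 fold change 0.41, adjusted p = 0.032), a call lost in 12 of 23 alternatives.
The count turned on the insulin libraries. Without insulin library 2 alone 2 rose and 7 fell, where 1764 and 622 of all 10842 genes tested did. Without insulin library 3 alone 13 rose and 1 fell, where 5311 and 528 of 10828 genes did. The median log2 fold change of the tested members was 0.06, beside 0.21 over all tested genes. Without libraries 1 and 2, which leaves a lone insulin library, these medians were -0.24 and -0.13. Median centring gave 1 that rose and 5 that fell, where 707 and 740 of all 10826 genes tested did. The 5 were Ccnb1, Cdc20, Ccna2, Mki67 and Top2a.
No S phase or mitosis gene passed in the comparison as deposited. Of the 27 tested 6 had an unadjusted p under 0.05 in limma, where this was so for 30.7% of all genes tested. Mcm5 was at 4.29, 2.90 and 4.36 TPM with insulin and 3.15, 3.02 and 3.30 TPM with both, whereas it was among the members that rose with rMSA in the absence of insulin. The difference between those effects, the interaction of rMSA and insulin, was -1.02 ± 0.22 SE for Mcm5 on the log2 scale, with an adjusted p of 0.30. In that limma test 0 of 36 members passed, 6 had an unadjusted p under 0.05 (16.7%, beside 6.45% of all genes), and 0.0369% of all tested genes passed in either direction. The median interaction of the tested members was -0.14 on the log2 scale, beside 0.14 over all tested genes. Without insulin libraries 1 and 2, which leaves a lone insulin library, these medians were -0.58 and -0.18. The wider p53 list had 7 of 18 higher and 0 lower in limma (38.9% higher), with 10 at an unadjusted p under 0.05, led by Phlda3, Plk3 and Aen (log2 fold changes of 0.82, 1.51 and 0.69).

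Insulin alone against vehicle gave no call. In limma 0 of 40 members rose and 0 fell, where 0% of all tested genes rose and 0% fell, and 7 of the 36 tested had an unadjusted p under 0.05 (19.4%), a smaller share than the 36.7% of all genes. Groups did not overlap for 0 members with insulin higher and 5 with insulin lower (Cdk4, Cdkn2c, Cdk1, Cdc20 and Aurka), where this was so for 4.35% and 11.8% of tested genes. The insulin libraries were far apart. Ccnd1 was at 124, 48.4 and 194 TPM, Pcna at 83.6, 38.5 and 115 TPM and Cdk2 at 5.37, 2.48 and 11.6 TPM, each lowest in library 2 and highest in library 3.
Library 3 alone lay above all vehicle libraries for 11 of the 13 S phase genes and below them for 5 of the 16 G2 and mitosis genes. Without library 3, 1 member rose and 13 fell, where 770 and 6635 of all 10828 genes tested did. Without libraries 1 and 2, with the lone library again assumed to vary like the others, no member passed and 2 had an unadjusted p under 0.05.

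Adding insulin to rMSA went with lower Mki67, Ccna2, Plk1, Mcm5 and Tk1 and higher Cdkn1a. Compared with rMSA alone, 5 members fell and 1 rose, 13.9% and 2.78% of the 36 tested, where 1.10% of all tested genes fell and 2.95% rose. Groups did not overlap for 31 members with the combination lower and 4 higher, where this was so for 37.1% and 18.6% of tested genes. None of the 6 calls held in every alternative. Of G2 and mitosis genes 3 of 15 tested fell, and of S phase genes 2 of 12. The median log2 fold change of the 16 G2 and mitosis genes was -0.72, that of the 13 S phase genes -0.37 and that over all genes -0.06.
Mki67, the proliferation antigen, fell from 4.45, 3.16 and 3.45 TPM to 1.28, 0.94 and 1.39 TPM (log2 fold change -1.08 ± 0.20 SE, adjusted p = 0.020). Ccna2 fell from 4.51, 4.16 and 4.21 TPM to 2.0, 1.29 and 2.09 TPM (log2 fold change -0.93, adjusted p = 0.029), and Plk1, a mitotic kinase, from 4.42, 4.48 and 4.79 TPM to 2.47, 2.73 and 2.09 TPM (log2 fold change -0.70, adjusted p = 0.020). Mcm5 and Tk1 fell with log2 fold changes of -0.71 and -0.71.
In all 5 the groups did not overlap, and for Mcm5 the combination, at 3.02 to 3.30 TPM, lay within the vehicle range. Cdkn1a rose further, from 257 to 264 TPM to 365 to 382 TPM (log2 fold change 0.50, adjusted p = 0.011, not called under median centring), so that its level with both agents was the highest of the 4 groups. Ccnd1 was at 146, 105 and 160 TPM with both, below the 239 to 298 TPM of rMSA alone, with an adjusted p of 0.15. Top2a (3.22, 2.41 and 3.71 TPM) and Cdk1 (3.47, 2.61 and 3.46 TPM) were also below rMSA alone without passing (adjusted p of 0.063 and 0.18).
The count depended on which libraries set the spread. Without insulin libraries 1 and 2, which are not part of the comparison, 26 members were lower and 2 higher, 14 of the 26 in G2 and mitosis. Over all 10865 genes tested in that fit 4009 were lower and 1560 higher. Without any 1 of the 6 libraries compared, 0 or 1 member passed, and without any 1 vehicle library 3 passed. Without insulin library 1, 2 or 3 alone 8, 25 or 22 passed. Over all genes 117, 2252 and 2292 then fell and 396, 1143 and 1048 rose, of 10840, 10842 and 10828 tested. Median centring gave 7 that fell and 0 that rose, where 758 and 619 of all 10826 genes tested did. The comparisons of rMSA with vehicle and of the combination with rMSA share the rMSA libraries, so their opposite signs for Mcm5, Tk1 and Mki67 are not separate evidence. Of the wider lists, 4 of 40 G2 and spindle genes tested fell (10%, beside 1.10% of all genes) and Ube2s, a ubiquitin enzyme of mitosis, rose (0.44). The falls were led by Kif11, Stmn1 and Ttk (-1.21, -0.49 and -0.76, with Kif11 and Ttk under 1 TPM with both agents). Of the 44 origin and fork genes tested 2 fell (4.55%), Pole and Lig1 (-0.70 and -0.65).

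**Figure D4:**
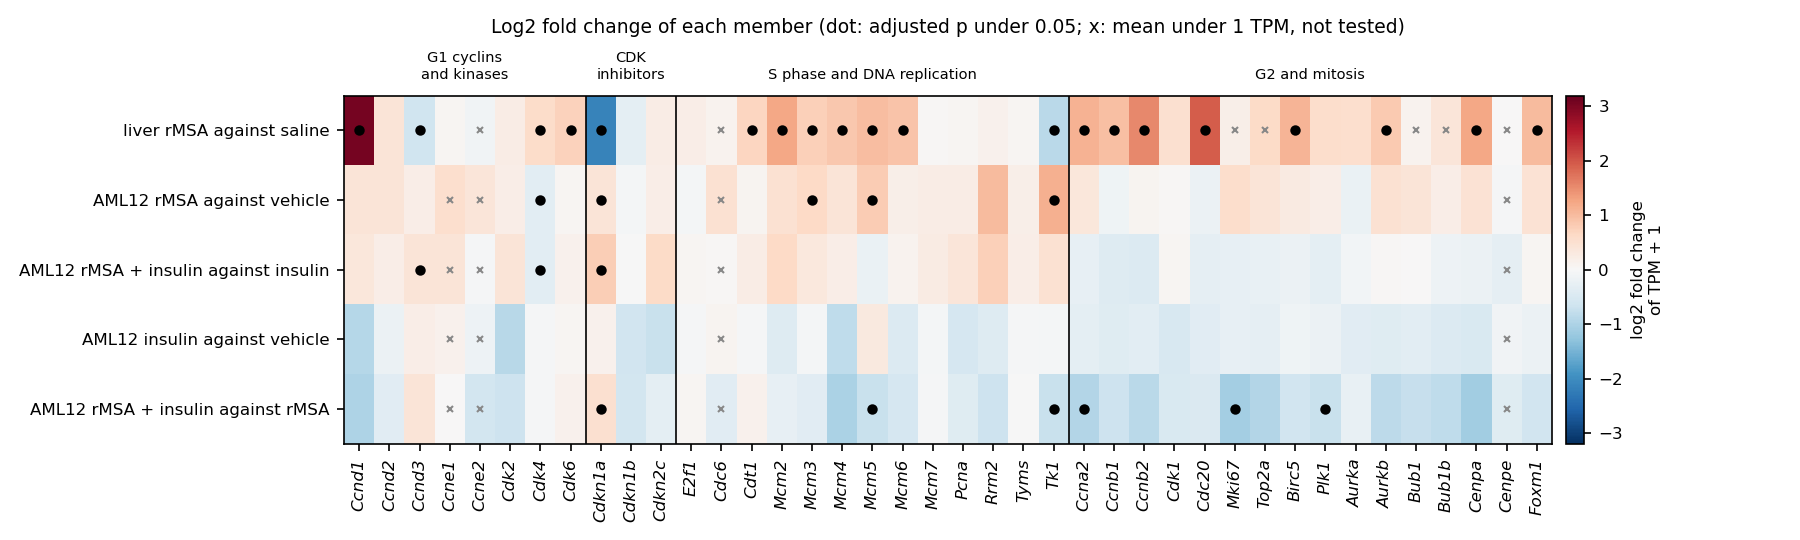
Log2 fold change of TPM + 1 for each of the 40 members (columns, grouped by role) in 5 comparisons (rows), from blue for lower to red for higher, with a black dot at an adjusted p under 0.05 and a cross where the mean was under 1 TPM and no test was made. The liver row is red for most S phase and mitosis genes, and the bottom row, rMSA + insulin against rMSA, is blue for all 16 genes of G2 and mitosis.

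Set side by side, the differences with rMSA in liver and cells went the same way for some members and opposite ways for others. Mcm3 and Mcm5 rose in both, with log2 fold changes of 0.76 and 0.98 in the liver and 0.63 and 0.81 in AML12. Ccnd1, at 3.06 in the liver, was at 0.42 in AML12, and Cdc20, at 1.94 in the liver, was at -0.18, both without passing in the cells. For Aurka, Ccnd3, Cdk4, Cdkn1a and Tk1 the 3 rMSA samples lay wholly on one side of the controls in the liver and wholly on the other in AML12. Whether liver and cells differ was not tested, since dose, time and scaling differ between them.

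**Figure D5:**
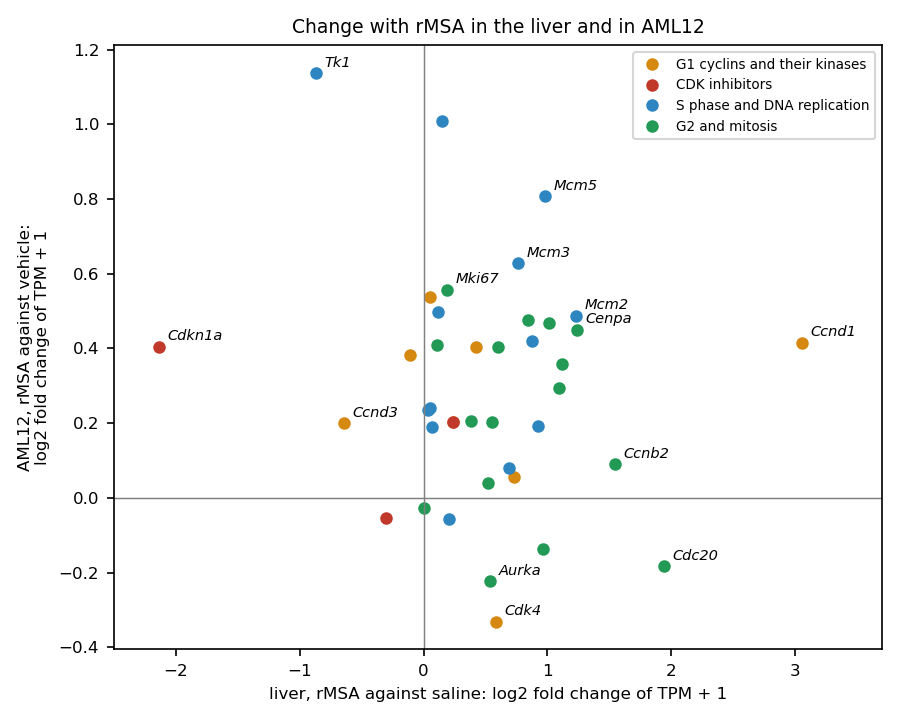
Log2 fold change of TPM + 1 with rMSA in the liver (horizontal axis) and in AML12 (vertical axis) for the 40 members, coloured by role. Tk1 and Cdkn1a lie at the upper left, lower in the liver and higher in AML12, and Ccnd1 lies far to the right at 3.06.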

How the data were processed

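The deposited values were TPM per gene. Per the submitters' processing notes, the authors used Trimmomatic 0.33, STAR 2.5.2b and featureCounts (Subread 1.6.0) with GRCm38. No annotation, no use of strand and no formula for TPM was stated in what was read here. Libraries were depleted of rRNA and sequenced on a BGISEQ platform, and the labels also describe oligo(dT) beads. The authors tested counts with DESeq2, which cannot be repeated on TPM.

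Members and lists were chosen with earlier results of these data known. Every member could be named, with values in every sample for the called members of largest change and for 7 anchors (Ccnd1, Cdkn1a, Mcm5, Pcna, Mki67, Cdk1 and Top2a). Wider lists gave up to 3 called genes of smallest p. The values of 1 such gene are not reported here. The liver fit used 6 libraries, and the AML12 fit all 12, so that its groups share 1 estimate of spread. limma 3.58.1 in R 4.3.3 was fitted to log2(TPM + 1), keeping genes whose mean reached 1 TPM. Empirical Bayes used a trend of variance on level, and p-values were adjusted by Benjamini-Hochberg over all genes of a comparison. The fit was tested on simulated data. The study's further limit, a log2 fold change of 1 or more in either direction, is an alternative here. Other alternatives were the pseudocount, the filter, median centring, quantile normalization, array weights, robust variance, only the compared groups, a replicate block and each library left out. Leaving out insulin libraries 1 and 2 was chosen with earlier results known and, for rMSA against vehicle, after seeing the data, as was the liver setting with both group means at 1 TPM or more. Library numbers came from sample titles. Deviations of same-numbered vehicle and rMSA libraries correlated at 0.53, 0.14 and 0.58. Those of insulin and rMSA + insulin libraries correlated at 0.095, 0.79 and 0.80, and every other pair of groups had a negative correlation in some number. The main fit did not use library numbers, and the replicate block was run only as an alternative. Promoters and positions came from RefSeq (GRCm38.p6). Protein sequences were not used here.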

Additional observations from a re-analysis of the deposited data

Results flagged for a closer look

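For 5 members the rMSA samples lay wholly on opposite sides of their controls in liver and in AML12, and each is given as the log2 fold change in AML12 minus that in the liver. The difference was 2.54 for Cdkn1a, 2.01 for Tk1, 0.84 for Ccnd3, -0.91 for Cdk4 and -0.76 for Aurka. None of these differences was tested: the tables were normalized separately, and dose and time differ. For Tk1, the overlapping gene Afmid fell by 1.29 on the log2 scale in the liver and changed by -0.04 in AML12. Aurka passed the test in neither system and Ccnd3 only in the liver. Groups of 3 samples were too small to look for single outlying samples.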

How the results depend on the processing

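Depth is unknown for TPM, and genes near 1 TPM depend on the filter and the added TPM. No call of a member reversed in any alternative. Of 281 liver values for called members 252 kept their direction and their call and 29 lost the call, of 114 for rMSA against vehicle 13 lost it, of 69 for rMSA + insulin against insulin 15, and of 134 for rMSA + insulin against rMSA 51. In the liver 12 of the 20 calls held in every alternative in which the gene was tested (Aurkb, Birc5, Ccna2, Ccnb2, Ccnd1, Ccnd3, Cdc20, Cdkn1a, Cenpa, Foxm1, Mcm2 and Tk1), and in AML12 only Tk1 for rMSA against vehicle did.

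Liver counts of 20 called members became 9 with a log2 fold change of 1 or more also required and 6 with a mean of at least 5 TPM, where fewer members are tested, and 13 to 20 with 1 mouse left out. Median centring gave 15 that rose and 4 that fell, where 1642 and 1496 of all 11398 genes tested did. The median over all tested genes went from 0.12 to -0.02. For rMSA against vehicle the count of 5 became 1 with the fold threshold, 28 with array weights, 15 with only the 2 groups, 11 without insulin libraries 1 and 2, and 3 to 9 with 1 library left out. For rMSA + insulin against insulin the count of 3 became 0 with the fold threshold, 22 with array weights, 6 with median centring, 8 with quantile normalization, 1 with only the 2 groups, 10 without insulin libraries 1 and 2, and 2 to 14 with 1 library left out. For insulin against vehicle it went from 0 to 11 with array weights and 0 to 14 with 1 library left out, the 14 without insulin library 3. Under median centring its median over all tested genes went from -0.30 to 0.10. For rMSA + insulin against rMSA the count of 6 became 1 with the fold threshold, 35 with array weights, 2 with a mean of at least 5 TPM, 26 with only the 2 groups, 28 without insulin libraries 1 and 2, and 0 to 25 with 1 library left out. For the interaction it went from 0 to 14 with array weights and 0 to 1 with 1 library left out. Leaving out insulin libraries 1 and 2 was chosen after seeing the data for rMSA against vehicle, and with earlier results known for the others. Counts over all genes moved as well. With array weights, of 10826 genes tested, 5058 rose and 2300 fell for rMSA against vehicle. For rMSA + insulin against insulin 5518 rose and 911 fell, and for insulin against vehicle 728 and 6412. For rMSA + insulin against rMSA 3387 rose and 6495 fell, and for the interaction 3438 were higher and 445 lower. With only the 2 groups 1837 of 10885 genes rose and 802 fell for rMSA against vehicle. Where the limit on fold or level or the number of libraries did not itself change, the cause was not tested.

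With a replicate block 11 members rose and 3 fell in the liver, where same-numbered mice share only a number, with correlations of 0.05, -0.41 and -0.39. Between vehicle and rMSA the replicate block gave 4 that rose and 1 that fell and changed no call. It gave 1 and 1 for rMSA + insulin against insulin, 1 and 7 for rMSA + insulin against rMSA, and 0 for insulin against vehicle and for the interaction.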
